A study of Homo sapiens with 6 samples.

Results

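The comparison described here set 2 libraries of MUTZ3 cells carrying the PLASS peptide construct against 2 libraries of MUTZ3 cells carrying an empty vector (EV), 4 of the 6 libraries sequenced. MUTZ3 is a cell line from an acute myelomonocytic leukaemia of the bone marrow. Its cells were grown in αMEM with foetal calf serum and medium conditioned by the 5637 line, transduced with a retroviral construct and labelled as collected at 72 h. PLASS is, per the labels, the control form of the PLDLS peptide, which blocks the contact between EVI1 and the CTBP proteins. The letters of its name differ from PLDLS by D3A and L4S, counted from 1 at the first letter. Both PLASS libraries carried p50MX-3xFLAG-3xNLS-4xPLASS-Zeo, and the 2 PLDLS libraries, which entered the fit, carried p50MX-3xFLAG-3xNLS-4xPLDLS-Zeo. The EV libraries were not alike: EV 1 is labelled p50MX-3xFLAG and EV 2 p50MX-Zeo. By these names EV 1 lacks the Zeo element of the PLASS construct and EV 2 its 3xFLAG element, and neither has the nuclear localisation signals or the peptide. Libraries were paired by their replicate number, 1 or 2. All genes with a mean of at least 2 CPM (TMM-scaled reads per 1000000) over the 4 libraries were described: 12051 of the 27722 genes in the tables, with 14631 tested.

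EVI1 is the zinc finger transcription factor encoded by MECOM. The inversion of chromosome 3 found in such leukaemias places MECOM under an enhancer of GATA2, and leukaemia cells with it depend on EVI1. EVI1 recruits the corepressors CTBP1 and CTBP2 through short motifs, PLDLS among them. A control peptide that cannot bind CTBP is meant to show what the vector, the expression of a tagged nuclear protein and the transduction do by themselves. PLASS against EV is therefore the comparison of one control with the other.

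The 4 libraries held between 12777337 and 35800826 estimated reads, EV 1 the most and PLASS 2 the fewest. Of the 10 myeloid markers 8, MECOM among them, reached 1 CPM in all 4 libraries. FLT3 was at most at 0.0811 CPM and CD14 stood between 0.811 and 2.11 CPM. The progenitor marker CD34 stood between 605 and 894 CPM. The T cell gene CD3D, the B cell gene MS4A1, the haemoglobin gene HBB, the platelet gene PF4 and the collagen gene COL3A1 were at 0 in all 4. The summed markers of T and natural killer cells ranged from 4.63 to 5.43 CPM. Those of B cells ranged from 4.14 to 7.03 and those of epithelial cells from 4.88 to 9.32. The highest single genes of these types were NKG7 at up to 4.03 CPM, CD79A at up to 6.0 and KRT8 at up to 4.89. Megakaryocyte markers summed to between 105 and 140 CPM, nearly all from ITGA2B. The labels do not say whether the replicates were separate cultures, so p-values measure the spread between these libraries only. With 2 libraries per group, groups that do not overlap are common even where nothing differs. Their share over all tested genes was not counted, so a lack of overlap below is a description only.

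Summed over its transcripts, MECOM rose with PLASS against EV, in both replicate numbers. The gene lies on chromosome 3 from 169083507 to 169663712 in GRCh38.p14, per RefSeq. It stood at 531 CPM in PLASS 1 and 342 CPM in PLASS 2, against 129 CPM in EV 1 and 88.2 CPM in EV 2. The groups did not overlap: the lower PLASS library was more than 2-fold above the higher EV library. The difference was 2.0 ± 0.15 on the log2 scale (SE, n = 2 per group; 95% interval 1.66 to 2.34) with an adjusted p of 0.00563 in edgeR's quasi-likelihood test with the replicate number as a block. Within replicate 1 it was 2.04 and within replicate 2 it was 1.95. MECOM passed the threshold of 0.05 in 15 of 15 alternative settings that kept the block. Without the block, edgeR gave the same gene an unadjusted p of 0.000118 and an adjusted p of 1.0, while DESeq2 without the block gave an adjusted p of 4.78e-07.

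Salmon divided the MECOM reads over 16 transcripts. The 3 with the highest mean share over the 4 libraries, each library weighted alike, held 94.1% of the MECOM reads in PLASS 1 and 98.3% in PLASS 2. They held 56.6% in EV 1 and 66.9% in EV 2. In reads this was 10393 of 11043 in PLASS 1 and 4142 of 4211 in PLASS 2. With EV it was 2764 of 4887 in EV 1 and 1069 of 1597 in EV 2. The higher gene sum with PLASS thus lay in these 3 transcripts. Relative to library depth, the other MECOM transcripts together were lower with PLASS than with EV in both replicate numbers. The shares are the authors' estimates among transcripts that overlap in sequence, and they were not tested.

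**Figure D1:**
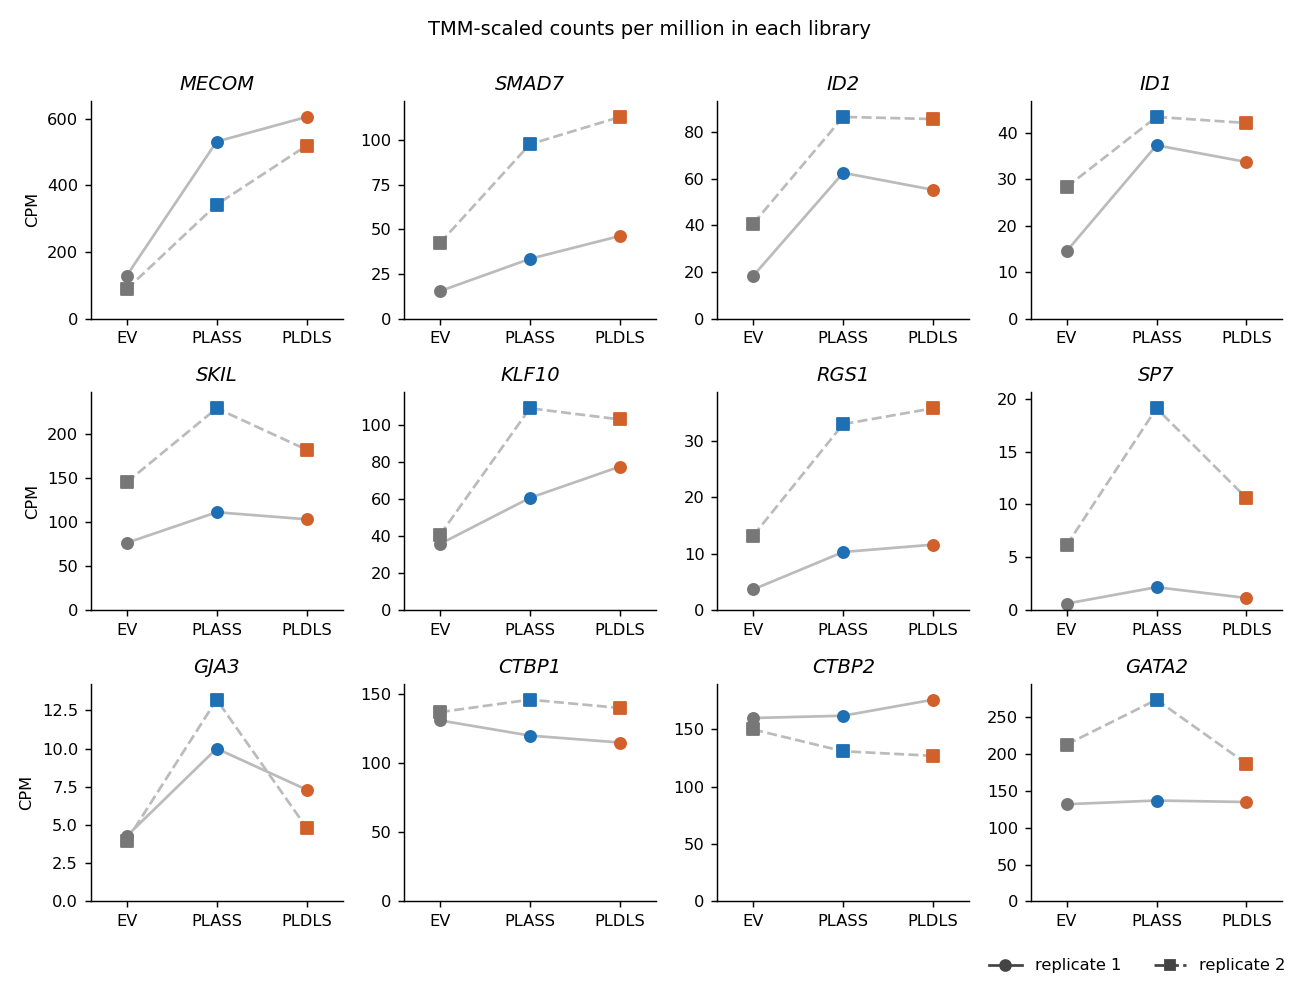
TMM-scaled CPM (linear axes from 0) of 12 genes in the 6 libraries, 1 point per library, circles and solid lines for replicate 1, squares and dashed lines for replicate 2. MECOM is at 531 and 342 CPM with PLASS and at 129 and 88.2 with EV, while CTBP1 and CTBP2 stay between 115 and 176 CPM in all 6 libraries.

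The corepressors that the peptide pair was built around were at near levels in both groups. CTBP1 stood at 120 and 146 CPM in the PLASS libraries and at 131 and 137 CPM in the EV libraries. CTBP2 stood at 162 and 131 CPM with PLASS and at 160 and 150 CPM with EV. The log2 difference was -0.018 for CTBP1 (95% interval -0.30 to 0.26) and -0.091 for CTBP2 (-0.40 to 0.22), so the groups overlapped and both intervals spanned 0. GATA2, a transcription factor of blood stem cells, stood at 137 and 274 CPM with PLASS against 132 and 213 CPM with EV, a log2 difference of 0.22 (-0.12 to 0.55). The signs of these 3 small differences were not stable across settings.

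Across all tested genes, edgeR with the block called 2 of 14631 genes, 0.0137%, both higher with PLASS. MECOM is one of them. This count depended on single libraries: it was 559 (313 higher, 246 lower) without EV 1, 44 without PLASS 1, 22 without EV 2, 13 without either PLDLS library and 10 without PLASS 2. At an unadjusted p under 0.05 there were 490 genes (3.35%), of which 375 were higher (2.56%) and 115 lower (0.786%). Without the block edgeR called 0 genes, with 101 at an unadjusted p under 0.05 (0.69%), 85 higher (0.581%) and 16 lower (0.109%). Both totals, 3.35% and 0.69%, are below the share of 0.05 that this threshold gives on average when no gene differs. These counts are therefore no evidence of change by themselves. DESeq2 with the block called 24 of 13496 genes (0.178%), 22 higher (0.163%) and 2 lower (0.0148%), and both edgeR calls were among them. Limma-voom with the block called 2. For comparison, the same edgeR fit called 621 genes (4.24%) in PLDLS against EV and 297 (2.03%) in PLDLS against PLASS.

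Among genes at 2 CPM or more with a positive log2 difference, the 8 named after MECOM in order of p did not pass the threshold in edgeR. SMAD7, the inhibitory SMAD that TGF-beta induces to damp its own signal, stood at 33.5 and 97.7 CPM with PLASS and at 15.4 and 42.4 CPM with EV. Each PLASS library was above the EV library of its own number, although PLASS 1 was below EV 2. Its log2 difference was 1.16 ± 0.14 (SE, n = 2 per group; edgeR adjusted p = 0.0606), and DESeq2 gave an adjusted p of 1.55e-06. Without the block edgeR gave SMAD7 an unadjusted p of 0.105.

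ID2, an inhibitor of basic helix-loop-helix factors and a target of BMP and SMAD signalling, stood at 62.6 and 86.6 CPM with PLASS. Its EV values were 18.4 and 40.8 CPM, so the groups did not overlap. The log2 difference was 1.42 ± 0.18 (SE, n = 2 per group; edgeR adjusted p = 0.0661, DESeq2 9.62e-08). RGS1, which shortens signalling by G protein-coupled receptors, stood at 10.3 and 33.0 CPM with PLASS and at 3.66 and 13.2 CPM with EV. Replicate 2 was the higher one in both groups, PLASS 1 was below EV 2, and the difference was of one sign within each number (1.47 and 1.32 on the log2 scale; edgeR adjusted p = 0.0606).

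SP7, a zinc finger factor of bone formation, stood at 2.16 and 19.1 CPM with PLASS and at 0.606 and 6.13 CPM with EV. Its level differed more between the replicate numbers than between the groups, PLASS 1 was below EV 2, and the log2 difference within the numbers was 1.67 and 1.62 (edgeR adjusted p = 0.0661). KLF10, an early TGF-beta response gene, stood at 60.6 and 109 CPM with PLASS and at 35.7 and 40.6 CPM with EV, without overlap (log2 1.10 ± 0.17, SE, n = 2 per group; edgeR adjusted p = 0.170). The gap junction gene GJA3 also did not overlap, at 10 and 13.2 CPM against 4.27 and 3.98 CPM (edgeR adjusted p = 0.238). The homeobox gene DLX2 and the arrestin-domain gene ARRDC4 had log2 differences of 1.67 and 0.70, with edgeR adjusted p of 0.238 and 0.271.

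DESeq2 with the block called SMAD7, ID2, RGS1, SP7, KLF10, GJA3 and ARRDC4, and without the block it called none of these. With the block it also called genes that the edgeR order placed lower. Among them were SLC7A11, the cystine transporter (DESeq2 adjusted p = 5.98e-05), GPR183, an oxysterol receptor that guides immune cells (0.000459), the zinc exporter SLC30A1 (0.00078), EMP1 (0.00209), INSIG1, a brake on cholesterol synthesis (0.0257), ID1 (0.0254) and the cell cycle inhibitor CDKN1A (0.0498). In edgeR their adjusted p lay between 0.272 and 0.751. Of the 24 DESeq2 calls 22 had a mean of at least 2 CPM.

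No gene was called lower by edgeR, and 115 were lower at an unadjusted p under 0.05. SENP3-EIF4A1, a readthrough transcript, stood at 5.80 and 2.28 CPM with PLASS and at 12.5 and 11.4 CPM with EV (log2 -1.60 ± 0.28, SE, n = 2 per group; edgeR adjusted p = 0.272, DESeq2 0.0189). It shares sequence with SENP3 and EIF4A1, so its value is uncertain. The sum of the 3 was 765 and 1030 CPM with PLASS against 812 and 1060 CPM with EV.

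SMN2 shows how near-identical copies behave in these tables. It was listed at 2.55 and 0 CPM with PLASS and at 62.2 and 46.8 CPM with EV. Its copy SMN1 was at 57.9 and 72.5 CPM with PLASS and at 0 and 51.8 CPM with EV. The sum of both was 60.4 and 72.5 CPM with PLASS and 62.2 and 98.6 CPM with EV, and the difference in SMN2 alone (edgeR adjusted p = 0.385) is uncertain.

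The other genes lowest in order of p included HLF, a transcription factor of blood stem cells, at 115 and 52.7 CPM with PLASS and 166 and 81.3 CPM with EV (log2 -0.57, edgeR adjusted p = 0.761). BCL11A, a transcription factor of B cells and a repressor of fetal globin, stood at 28.5 and 6.0 CPM against 39.7 and 18.3 CPM (log2 -0.98, edgeR adjusted p = 0.854). The kinase gene PIM1 stood at 352 and 278 CPM against 455 and 416 CPM, without overlap (log2 -0.47, edgeR adjusted p = 0.904). ITPRIPL1, SP8, C2CD2, the zinc importer SLC39A10 and GPT had log2 differences between -0.99 and -0.45 and edgeR adjusted p between 0.751 and 0.937. None of these passed the test.

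The gene lists were chosen with earlier results of these data known, and so were the 8 described below, which were picked after the results of all lists had been seen. Each count stands against the share over all tested genes, 3.35% at an unadjusted p under 0.05, and the median over all tested genes, -0.0032 on the log2 scale. In the TGF-beta and BMP list, which holds receptors, SMADs, inhibitors and targets, 8 of 24 tested members were higher at an unadjusted p under 0.05 and 0 lower (33.3%). The list median was 0.23, with 0.18 within replicate 1 and 0.22 within replicate 2. Beside SMAD7 and ID2, the corepressor SKIL stood at 111 and 229 CPM with PLASS and 76.2 and 145 CPM with EV (log2 0.61, edgeR adjusted p = 0.476). ID1 stood at 37.3 and 43.4 CPM with PLASS and at 14.5 and 28.3 CPM with EV, without overlap (log2 0.98, edgeR adjusted p = 0.476).

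Of 25 immediate early genes, the first genes switched on by growth factors and stress, 10 were higher and 0 lower at an unadjusted p under 0.05 (40.0%), and neither edgeR nor DESeq2 called any. Their median was 0.094 within replicate 1 and 0.87 within replicate 2, so the difference came mostly from replicate 2. EGR3 stood at 9.86 and 42.8 CPM with PLASS against 6.50 and 21.4 CPM with EV (log2 0.81, edgeR adjusted p = 0.555). EGR2 stood at 1.54 and 8.44 CPM against 0.790 and 1.33 CPM. JUNB and the survival gene MCL1 had log2 differences of 0.46 and 0.48, each with an edgeR adjusted p of 1.0.

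Stress genes had a like pattern. Of 24 genes of the integrated stress and unfolded protein responses, 6 were higher and 0 lower at an unadjusted p under 0.05 (25.0%), with a median of 0.10 within replicate 1 and 0.35 within replicate 2. SLC7A11 stood at 41.8 and 166 CPM with PLASS and at 24.4 and 45.1 CPM with EV (log2 1.36, edgeR adjusted p = 0.272). PPP1R15A, which ends the translational block of the stress response, had a log2 difference of 0.70, and the chaperone-degradation gene HERPUD1 and the transporter subunit SLC3A2 had 0.47 and 0.37. Of 20 NRF2 and oxidative stress genes, 3 were higher and 0 lower at an unadjusted p under 0.05 (15.0%), SLC7A11 among them. HMOX1, which degrades haem, was at 2.93 and 11.3 CPM with PLASS and at 1.90 and 0.995 CPM with EV, which is 0.60 within replicate 1 and 3.37 within replicate 2 on the log2 scale. The glutathione gene GCLM and the ferritin gene FTH1 had log2 differences of 0.38 and 0.26.

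Of 29 p53 target genes, 7 were higher and 0 lower at an unadjusted p under 0.05 (24.1%). Their median was 0.12 within replicate 1 and 0.17 within replicate 2. Within both replicate numbers 21 of the 29 were higher, against 3444 of all 14631 tested genes. CDKN1A stood at 417 and 666 CPM with PLASS and at 315 and 317 CPM with EV, without overlap (log2 0.73 ± 0.18, SE, n = 2 per group; edgeR adjusted p = 0.751). PMAIP1, a BH3-only death gene, stood at 30.1 and 100 CPM against 18.3 and 57.3 CPM. PLK3 and GADD45A, both induced by DNA damage, had log2 differences of 0.64 and 0.74. Of 31 hypoxia and glycolysis genes, 3 were higher and 0 lower at an unadjusted p under 0.05 (9.68%). DDIT4, an inhibitor of mTORC1 induced by hypoxia and stress, stood at 107 and 580 CPM with PLASS and at 71.0 and 138 CPM with EV (log2 1.29, edgeR adjusted p = 0.751). NDRG1 and PFKFB3 had log2 differences of 0.49 and 0.40. VEGFA had 0.50, which was -0.011 without EV 2 and 1.06 without EV 1.

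The NF-kB and inflammatory list had its difference in the other replicate number. Of 28 tested members 5 were higher and 0 lower at an unadjusted p under 0.05 (17.9%). The median was 0.74 within replicate 1, where 27 of 28 were higher, and 0.025 within replicate 2, where 14 of 28 were. Of all 14631 tested genes, 7773 were higher within replicate 1 and 7302 within replicate 2. The chemokine gene CXCL3 stood at 11 and 14.6 CPM with PLASS and at 5.17 and 10.8 CPM with EV (log2 0.75, edgeR adjusted p = 1.0). CXCL1 had a log2 difference of 0.82, which was 0.29 without EV 1 and 1.4 without EV 2. CCL3 had 1.01, which was 0.65 and 1.81 in these fits, and CCL4 had 0.74, between 0.65 and 0.92 with any 1 library left out. Of the 49 genes named for PLASS against EV, 26 had a log2 difference that moved by over 1.5 times when 1 library was left out, and MECOM stayed between 1.86 and 2.1.

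Among 27 haematopoietic transcription factors, 2 were higher and 3 lower at an unadjusted p under 0.05 (18.5%), with a median of -0.11. KLF4 was at 0.433 and 3.89 CPM with PLASS and at 0.211 and 0.332 CPM with EV. MYC stood at 191 and 125 CPM with PLASS and at 232 and 171 CPM with EV (log2 -0.36, edgeR adjusted p = 1.0). In 19 of the 40 lists with tested genes no member was at an unadjusted p under 0.05. These include the 31 interferon-stimulated genes, the 16 MHC class II genes, the 28 G2/M and mitosis genes and the 35 DNA replication genes. At the share of 3.35% over all tested genes, lists of these sizes often hold no such member. The absence is therefore no result about them.

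**Figure D2:**
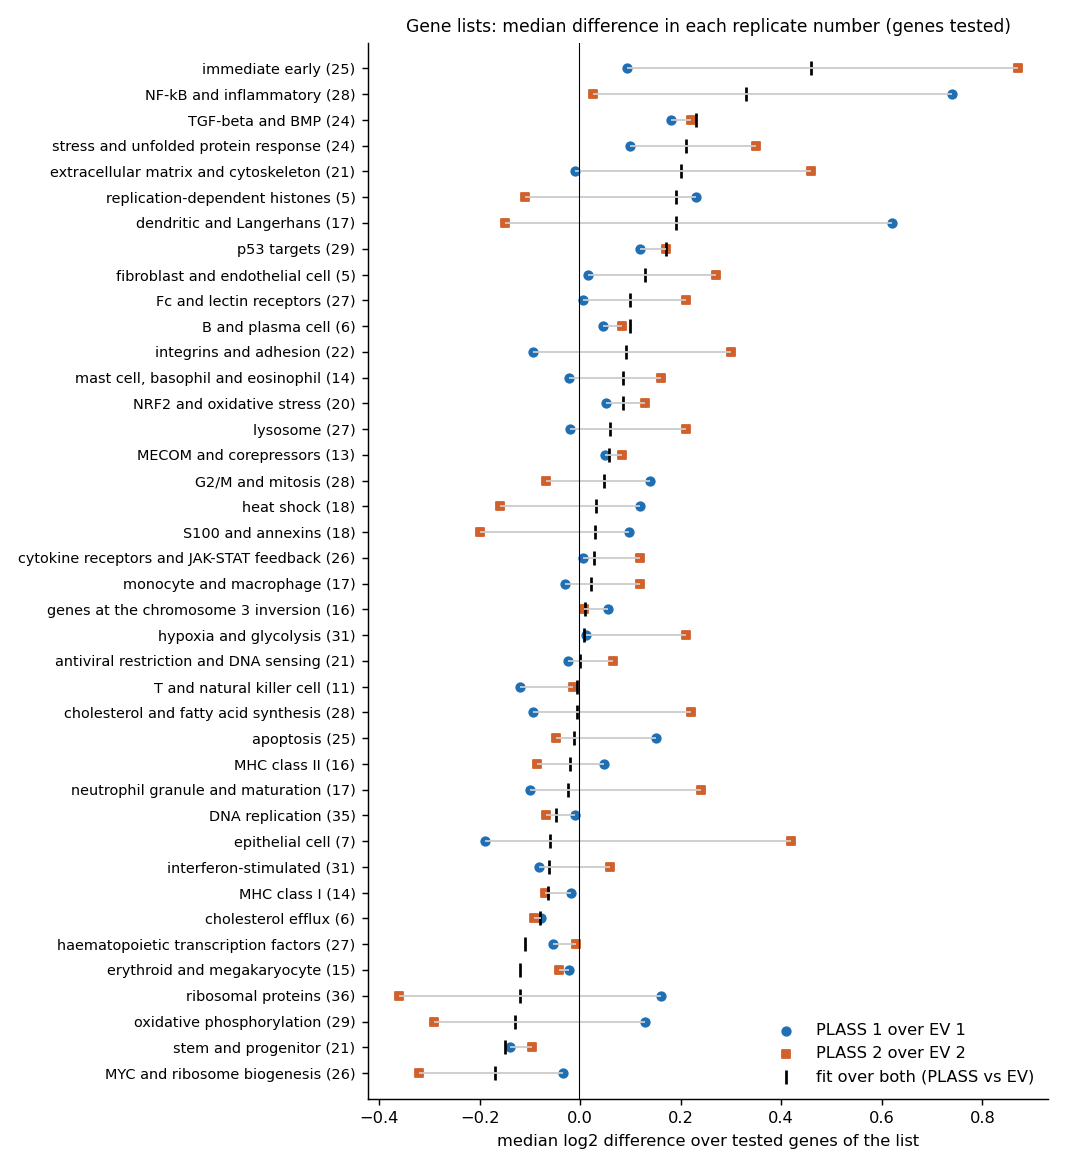
Median log2 difference of PLASS against EV over the tested genes of each of 40 lists (number in brackets), within replicate 1 (circles), within replicate 2 (squares) and in the fit over both (black ticks). The circle and square of the TGF-beta and BMP list lie together at 0.18 and 0.22, and so do those of the p53 list at 0.12 and 0.17. Those of the immediate early list (0.094 and 0.87) and the NF-kB list (0.74 and 0.025) lie apart.

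The 2 replicate numbers gave different pictures of the same comparison. Over the 12051 genes at 2 CPM or more, the log2 differences within replicate 1 and within replicate 2 had a Pearson r of 0.00202 and a Spearman rho of -0.166. This is across genes, which are not independent replicates, and is given as a description without a test. The sign was the same in 5150 genes (42.7%). The differences had an SD of 0.24 in replicate 1 and 0.40 in replicate 2, and of 0.16 and 0.31 over the 4799 genes at 50 CPM or more. In replicate 1, 42 genes were at least 2-fold higher and 8 at least 2-fold lower. In replicate 2 there were 174 and 64. Past 2-fold in both were 12 higher and 2 lower genes. Apart from MECOM, the higher ones include SMAD7, ID2, RGS1, SP7, GJA3, DLX2, the water channel gene AQP1 and the Notch ligand gene JAG2. The 2 lower ones are SMN2 and SENP3-EIF4A1, both uncertain as said above.

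**Figure D3:**
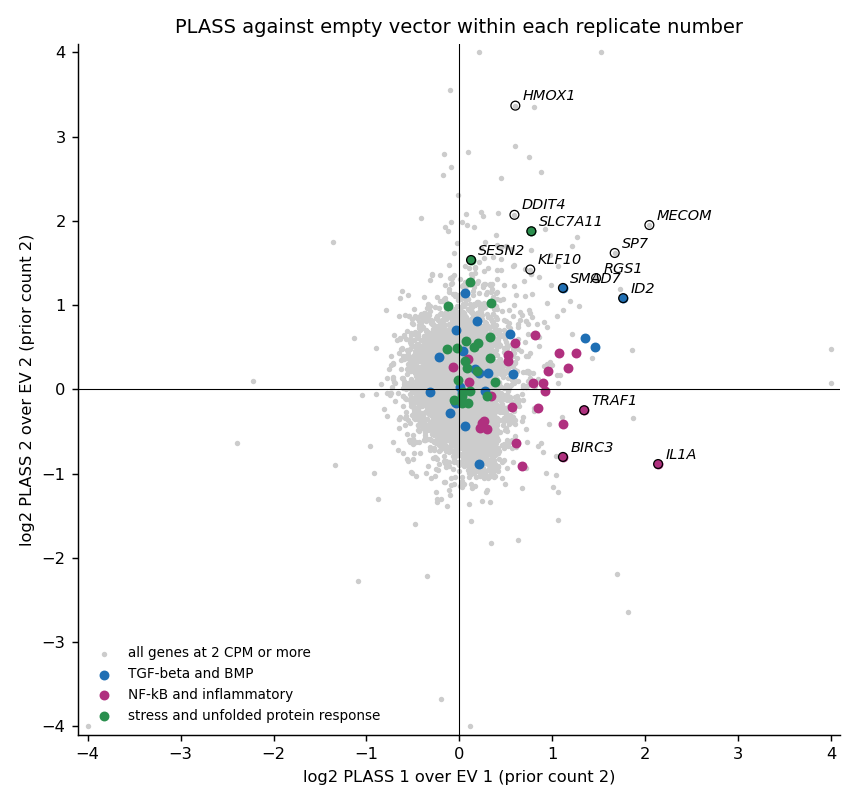
Log2 difference PLASS 1 over EV 1 (x axis) against PLASS 2 over EV 2 (y axis), prior count 2, for the genes at 2 CPM or more, values beyond 4 drawn at 4, with 3 lists in colour and 1 gene that is not reported left out. MECOM lies at 2.04 and 1.95 and SMAD7 at 1.11 and 1.20, near the diagonal, while IL1A (2.14 and -0.89) and HMOX1 (0.60 and 3.37) lie far from it.

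Because the 2 EV libraries carry different vectors, the change from EV 1 to EV 2 was set against the change from replicate 1 to replicate 2 in the peptide libraries. EdgeR called 175 of 14631 genes (1.20%) for this term, 101 higher (0.69%) and 74 lower (0.506%), with 2292 at an unadjusted p under 0.05 (15.7%). The term leaves 1 residual degree of freedom. Vector and library cannot be told apart here, since each vector has 1 library.

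Inflammatory genes were among those where EV 2 stood higher than the peptide libraries' change would give. IL1A, the alarmin interleukin-1 alpha, stood at 2.26 CPM in EV 1 and 16.6 CPM in EV 2, whereas PLASS was at 10.3 and 8.92 CPM. PLASS 1 was thus above EV 1 and PLASS 2 below EV 2 (term 2.92 ± 0.34, SE, edgeR adjusted p = 0.0115). IL1B and the receptor gene IL18R1 had terms of 1.62 and 1.99. BIRC3, an NF-kB target that inhibits cell death, stood at 10.4 and 77.1 CPM with EV and at 22.6 and 44.2 CPM with PLASS (term 2.15, edgeR adjusted p = 0.0143). In all, 6 of 28 NF-kB and inflammatory genes were called for the term, all higher, and so were 6 of 36 ribosomal protein genes.

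Some stress-induced genes had terms of the opposite sign. Of 24 stress and unfolded protein response genes 0 were called higher and 2 lower, with a list median of -0.075 for the term. Of 31 hypoxia and glycolysis genes 0 were called higher and 3 lower, and of 20 NRF2 and oxidative stress genes 1 was called higher and 1 lower. SESN2, a stress-induced inhibitor of mTORC1, stood at 78.1 and 76.2 CPM with EV and at 85.1 and 221 CPM with PLASS (term -1.41 ± 0.17, SE, edgeR adjusted p = 0.0116). DDIT4 also had a term of -1.41, and TSC22D3, a glucocorticoid-induced gene, had -1.96, at 8.14 and 8.51 CPM with EV and 8.27 and 34.1 CPM with PLASS. Within replicate 1 the log2 difference of PLASS from EV was 0.12 for SESN2, 0.59 for DDIT4 and 0.02 for TSC22D3, and within replicate 2 it was 1.54, 2.07 and 1.99. PBXIP1 had a term of -1.65. F8A2 had -2.85 and is uncertain, because it has near-identical copies. MECOM, SMAD7 and RGS1 had terms of -0.12, 0.042 and 0.19, with edgeR adjusted p of 0.847, 0.951 and 0.791. ID2 and ID1 had larger terms of 0.60 and 0.70, and KLF10 had -0.45 (edgeR adjusted p of 0.146, 0.137 and 0.328).

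The genes called for the term also differed in length. Their median effective length was 1443 bases for the 101 higher genes and 3954 bases for the 74 lower ones, against 2755 over all tested genes. The part of transcript length in the term was not tested, beyond the fit with an effective-length offset, which called 312 genes.

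**Figure D4:**
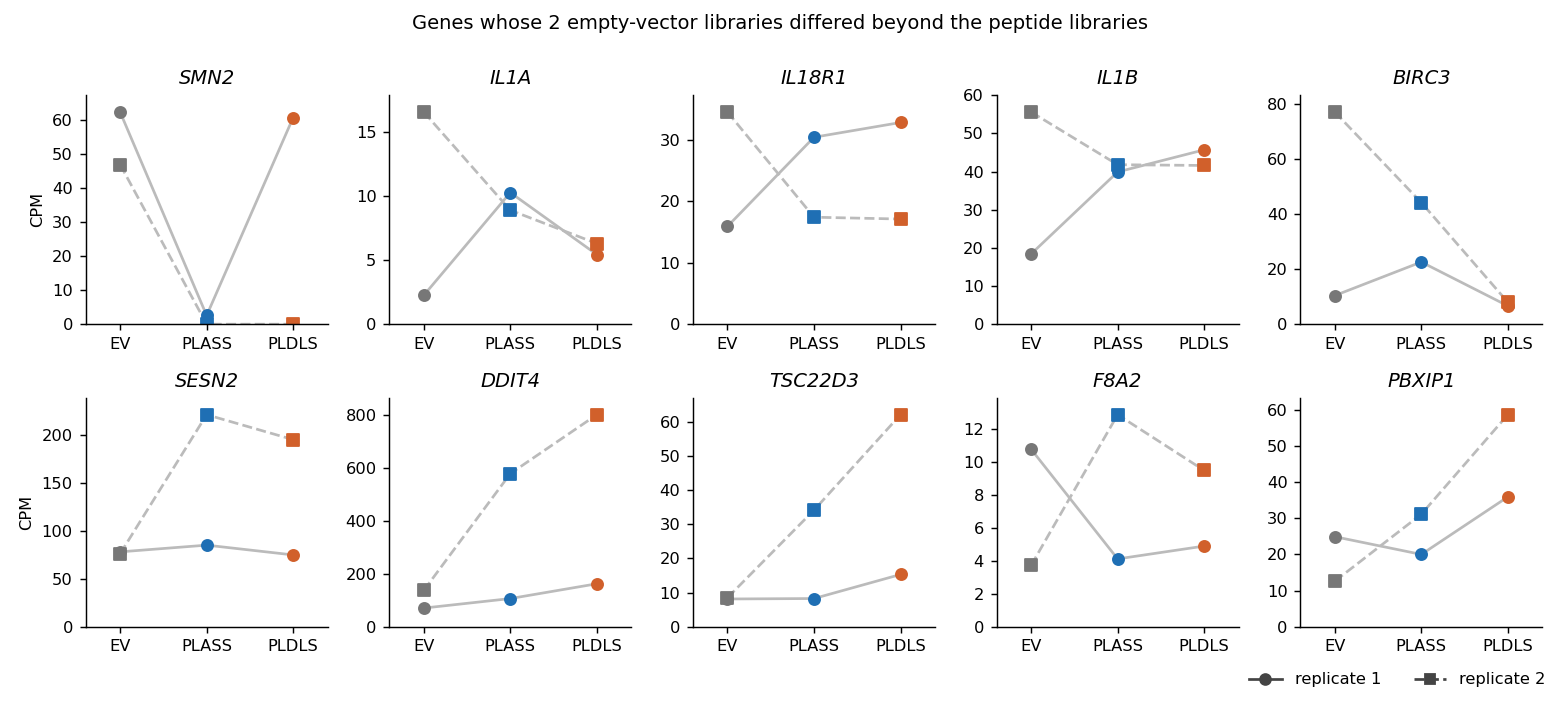
TMM-scaled CPM (linear axes from 0) of the 10 genes named for the EV term in the 6 libraries, 1 point per library, circles and solid lines for replicate 1, squares and dashed lines for replicate 2. For IL1A, IL18R1 and IL1B the EV 2 library is the highest, and for SESN2 and TSC22D3 both EV libraries are low while PLASS 2 and PLDLS 2 are high.

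PLASS and PLDLS were compared with the same EV libraries, so their differences from EV are not independent and are given side by side only. MECOM was 2.0 higher with PLASS and 2.4 higher with PLDLS on the log2 scale. Set against each other, PLDLS exceeded PLASS by 0.40 for MECOM (95% interval 0.07 to 0.72, edgeR adjusted p = 0.295). SMAD7 had 1.16 with PLASS and 1.5 with PLDLS, ID2 1.42 and 1.32, RGS1 1.41 and 1.55, and KLF10 1.10 and 1.22, and the direct difference did not pass the test for any of the 4 (edgeR adjusted p between 0.383 and 0.938). Less alike were SP7 (1.70 with PLASS and 0.82 with PLDLS), GJA3 (1.48 and 0.61) and ARRDC4 (0.70 and 1.16). Set against each other, PLDLS differed from PLASS by -0.88 for SP7 (95% interval -1.40 to -0.35) and -0.87 for GJA3 (-1.46 to -0.28). For ARRDC4 the direct difference was 0.46 (0.19 to 0.74). The edgeR adjusted p of these direct differences lay between 0.118 and 0.171. Missing the threshold does not show that the peptides act alike. HLF differed by -0.57 with PLASS and -1.70 with PLDLS, and SP8 by -0.67 and -1.77. For both, PLDLS was lower than PLASS, with direct differences of -1.13 and -1.10 (edgeR adjusted p = 0.0104 and 0.0249).

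**Figure D5:**
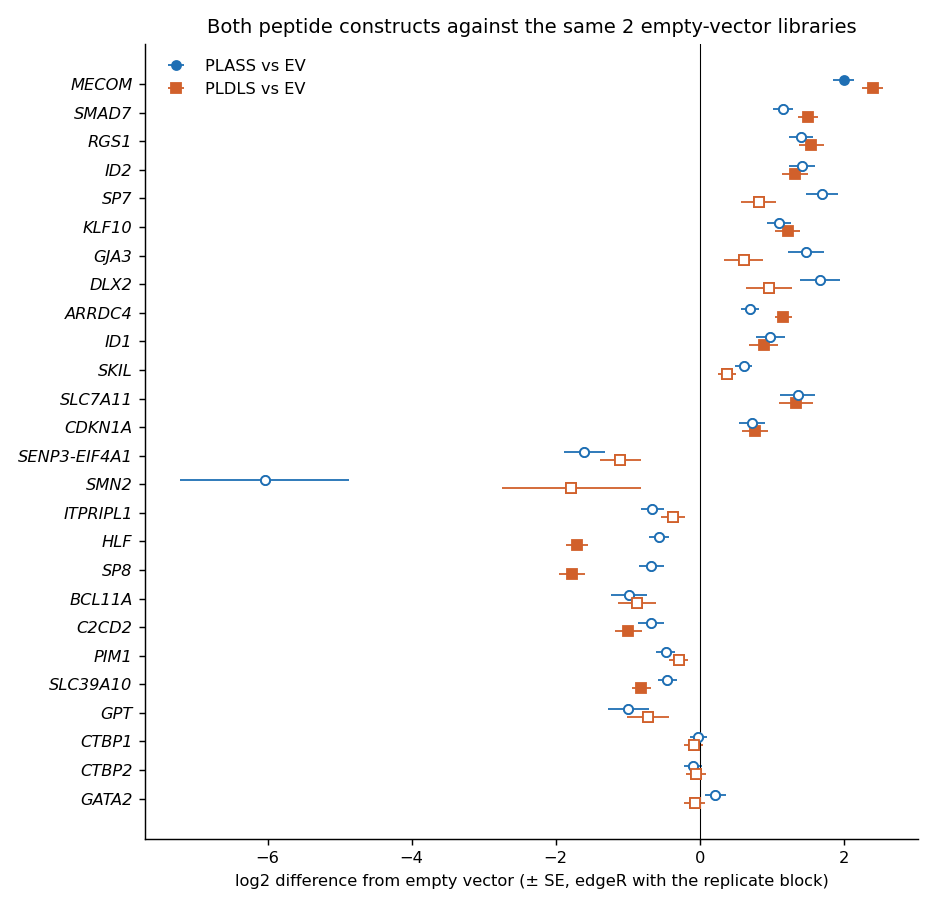
Log2 difference from EV with its SE (edgeR with the replicate block) for PLASS (circles) and PLDLS (squares); filled markers passed an adjusted p of 0.05 and open ones did not. MECOM is filled for both, at 2.0 and 2.4, and SMAD7, ID2 and RGS1 are open for PLASS and filled for PLDLS.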

How the data were processed

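Poly-A RNA of 6 libraries was quantified by the authors with Salmon, per the file headers and the submitters' processing notes (Salmon 0.3.1, bcl2fastq 1.8.4, hg38). The deposited tables give, per transcript, the estimated count of reads, TPM and effective length. Of 69004 transcripts 99.4% were matched to a gene name through RefSeq or GENCODE, and estimated counts were summed per gene and rounded; those without a name held at most 0.0891% of the reads of a library and were left out. TPM in the deposited tables served to weight the transcripts in the effective length of each gene. It was also checked to sum to 1000000 per library.

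Counts were tested with edgeR 4.0.16 (quasi-likelihood, TMM, filterByExpr, Benjamini-Hochberg adjustment; R 4.3.3) over all 6 libraries with group and replicate number as terms, threshold 0.05. DESeq2 1.42.0 and limma-voom (limma 3.58.1) were alternatives. The block was made part of the design because the libraries are paired by their experiment tag. As a check of that pairing, the changes from number 1 to number 2 correlated across 9322 genes at 0.596 (PLASS and EV), 0.706 (PLASS and PLDLS) and 0.536 (EV and PLDLS), so the numbers pair the libraries. The common biological coefficient of variation was 0.13 with the block and 0.236 without it. The 2 libraries per group limit the precision. The fits were also run on counts simulated from the edgeR fit with the block. Such counts cannot show whether that model suits these libraries.

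The members and the 41 gene lists were chosen with earlier results of these data known. Named genes are the 10 with the smallest p in each direction at a mean of 2 CPM or more, MECOM, CTBP1, CTBP2 and GATA2, up to 4 per described list, and 5 each way for the EV term. EMP1, SLC30A1, GPR183, INSIG1, AQP1, JAG2 and SMN1 were named after their values were seen. Of the 2 genes called by edgeR, 1 is not reported here by name; it stays in all counts and list medians. Short promoter motifs were searched in a few of the named genes and are not reported, since the data hold no measurement at promoters.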

Additional observations from a re-analysis of the deposited data

Results flagged for a closer look

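The difference between the 2 EV libraries beyond that of the peptide libraries was tested with an interaction term, which edgeR called for 175 genes. The 10 named genes are those with the smallest p in each direction, and each was called for this term, not for PLASS against EV. Higher were SMN2 at 11.14, IL1A at 2.92, BIRC3 at 2.15, IL18R1 at 1.99 and IL1B at 1.62, on the log2 scale. The SMN2 value is uncertain, because its reads were divided with its near-identical copy SMN1 and the sum of both differed far less. Lower were F8A2 at -2.85, TSC22D3 at -1.96, PBXIP1 at -1.65, SESN2 at -1.41 and DDIT4 at -1.41. F8A2 is uncertain too, since F8A1 is a near-identical copy. Each vector has 1 library, so vector and library cannot be told apart.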

How the results depend on the processing

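The number of genes called in PLASS against EV depended on the setting, from the 2 of the design. With the replicate block kept, it was 12 with only the 4 PLASS and EV libraries, 24 with DESeq2, 37 with no filter on low counts and 1 with every library thinned to the shallowest, and it stayed at 2 with limma-voom, DESeq2 size factors, upper-quartile scaling, the stricter filter and the length offset. Leaving out 1 library gave 10 to 559 calls: 44 without PLASS 1, 10 without PLASS 2, 13 without either PLDLS library, 22 without EV 2 and 559 (313 higher, 246 lower) without EV 1. The 559 and the 22 shared 11 genes, all with the same sign, which is 1.97% of the first and 50% of the second. A group left with 1 library is assumed to vary like the others.

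Without the replicate block edgeR called 0 genes, and 0 with only the 4 libraries. The settings that combine dropping the block with a further choice were chosen after seeing the data: limma-voom without the block called 0, DESeq2 3 and edgeR with no filter 33, and leaving out any 1 library without the block gave 0 to 0. The EV term gave 113 calls with DESeq2 (of 4987 genes with an adjusted p), 777 with limma-voom, 851 with no filter and 312 with the length offset, the last added after seeing the data. It could not be tested with a library left out.

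Among 1367 alternative values of 49 named genes, 28 had the opposite sign, including SP7, which DESeq2 called, but none for MECOM. With the block, these were CTBP1 at 0.11 (thinned), 0.03 (without PLASS 1) and 0.083 (without EV 1), CTBP2 at 0.051 and VEGFA at -0.011 (without EV 2), and GATA2 at -0.02 (without PLASS 2). Over the 6 fits that each left out 1 library, CTBP1 ranged from -0.13 to 0.083, CTBP2 from -0.24 to 0.051, GATA2 from -0.02 to 0.41 and VEGFA from -0.011 to 1.06. The other 22 came from fits without the block that also left out 1 library. Without PLASS 2 these were CCL4 at -1.86, JUNB at -0.75, CCL3 at -0.66, SP7 at -0.62, EGR3 at -0.52, GATA2 at -0.36, PMAIP1 at -0.35, PPP1R15A at -0.2, PFKFB3 at -0.14, MCL1 at -0.063, VEGFA at -0.045, SKIL at -0.017, NDRG1 at -0.0089 and CTBP2 at 0.038. Without EV 1 they were CCL4 at -0.26, CCL3 at -0.19, JUNB at -0.12, GATA2 at -0.057, HLF at 0.043 and GPT at 0.18. CTBP1 was at 0.12 without PLASS 1 and 0.02 without EV 2. The cause was not tested; in these fits the 2 groups hold the replicate numbers unequally by construction.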
